A study of Homo sapiens with 6 samples.

Results

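The RNAs described here come from 10 snoRNA host genes, GAS5, SNHG1, SNHG5, SNHG6, SNHG7, SNHG8, SNHG12, SNHG15, SNHG16 and EPB41L4A-AS1. They were chosen by symbol from 24462 gene symbols, all 10 are present in the count tables, and all 10 pass the filter on low counts. The measurements compare HCEC-1CT (1CT), an immortalized human colonic epithelial cell line, with 1CT-A, the version of that line depleted of wild type APC, each in 3 libraries of untreated cells. Per the labels, both lines grow in a medium with 20 ng/mL EGF, 1 µg/mL hydrocortisone, 10 µg/mL insulin, 5 nM selenite, 2 µg/mL transferrin and 2% serum, and 500 ng of total RNA per sample goes into a QuantSeq library, which reads each transcript near its 3′ end. The labels do not say whether the 3 libraries of a line are separate cultures, so the p-values measure the spread between these libraries, which may be technical, and 1CT-A is a single derived line.

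A snoRNA host gene is transcribed and spliced like other genes, and the small nucleolar RNA is trimmed out of an excised intron while the joined exons are left as the host RNA. Box C/D snoRNAs guide ribose methylation and box H/ACA snoRNAs guide pseudouridylation of ribosomal RNA, and the spliced exons of many noncoding hosts are removed by nonsense-mediated decay when ribosomes read them. Many host genes start with a 5′ terminal oligopyrimidine (TOP) tract, a run of C and T that begins with C at the first transcribed base and places the RNA under the translation control of mTOR. In colon epithelium, APC holds back Wnt signalling, a driver of growth and ribosome production.

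A snoRNA of each box class shows what these genes release, since the counts of these libraries lie mostly in the host symbols and not in the small RNAs. SNORD26 lies in an intron of SNHG1 (GRCh38, chr11:62855292-62855366, minus strand) and ends near its box D. SNORA61 lies in an intron of SNHG12 (chr1:28579764-28579893, minus strand) and carries the box ACA 3 bases before its end. The sequences are read by name from GENCODE transcripts, and capitals mark box D in the first and box ACA in the second.
SNORD26: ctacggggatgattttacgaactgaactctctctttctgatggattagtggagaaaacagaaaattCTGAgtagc
SNORA61: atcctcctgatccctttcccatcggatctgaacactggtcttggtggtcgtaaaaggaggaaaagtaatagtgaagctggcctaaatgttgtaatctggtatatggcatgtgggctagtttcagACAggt

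The start sites show how far the 10 genes share the TOP tract, a feature that the choice of genes did not use. A RefSeq (GRCh38.p14) start sequence was at hand for 8 of the 10, and SNHG6 and SNHG15 were not examined. Each line below holds 20 bases before the start and 30 from it, 5′ to 3′ on the gene's strand, with the pyrimidine run that begins at the RefSeq start in capitals.
SNHG12: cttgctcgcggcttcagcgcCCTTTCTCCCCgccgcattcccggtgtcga
SNHG5: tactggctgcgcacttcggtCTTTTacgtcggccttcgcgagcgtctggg
SNHG7: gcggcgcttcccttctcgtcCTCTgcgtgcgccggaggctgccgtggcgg
SNHG1: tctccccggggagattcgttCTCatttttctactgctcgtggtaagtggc
SNHG8: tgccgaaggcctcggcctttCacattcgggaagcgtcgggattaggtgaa
EPB41L4A-AS1: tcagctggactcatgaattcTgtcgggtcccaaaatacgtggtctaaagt
SNHG16: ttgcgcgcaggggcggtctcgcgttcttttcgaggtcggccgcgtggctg
GAS5: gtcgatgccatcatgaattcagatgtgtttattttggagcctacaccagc

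The run reaches 11 bases in SNHG12 and 5 in SNHG5, and is shorter in the others. With C at the start and at least 5 pyrimidines as the rule, 2 of the 8 hosts have a TOP tract at the RefSeq start, against 4.07% of 35116 annotated starts. Among protein-coding snoRNA hosts, mostly genes of ribosomal proteins and translation factors, 21 of 37 genes have one (56.8%), and among other noncoding hosts 5 of 14 (35.7%). In these lists a gene counts if any of its RefSeq starts has a tract. The 4.07% is a share of single starts, so it is not a like measure for them. Neither of the hosts with a tract, SNHG12 and SNHG5, passes the test between the cell lines. SNHG6 and SNHG15, which do pass, had no start sequence to examine, so their tracts are unknown here. The start that these cells use was not measured, and GAS5 and SNHG16 have no pyrimidine at the RefSeq one. RefSeq and GENCODE do not always place the start at the same base. The printed windows of SNHG12 (chr1:28581844-28581893) and SNHG5 (chr6:85678704-85678753), both on the minus strand, lie wholly after the GENCODE starts at 28583132 and 85678932. Those of SNHG1, SNHG8 and SNHG16 also lie wholly after the GENCODE starts. For these genes the presence or lack of a tract holds for the RefSeq start only. The printed GAS5 window (chr1:173869016-173869065, minus strand) lies wholly before the GENCODE start of GAS5 at 173868882. It therefore cannot say whether GAS5 has a tract at the GENCODE start.

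Further motifs were searched on both strands of the 300 bases from 250 before to 50 after the start. CACGTG, the E-box that MYC binds, occurs in 1 of the 8 hosts (SNHG7), against 7.26% of all starts. TATAAA occurs in SNHG1 and SNHG7, against 11.5% of all starts. In SNHG1 the match is on the opposite strand and after the start, which is not the place of a TATA box. CTTTGAT or CTTTGAA, the core that TCF/LEF factors bind, occurs in 0 of the 8 windows, against 6.86%. The GC content of the windows runs from 37.7% in GAS5 to 75.3% in SNHG7, around a median of 58.7% over all starts. The GAS5 window lies wholly before the GENCODE start of that gene.

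Library totals run from 7788679 to 8452258 counts for 1CT and from 11158108 to 12602988 for 1CT-A, every one of them deeper than any of 1CT, and a count of 0 allows up to 3 counts, or 0.238 to 0.385 CPM (CPM being the count scaled to a common library total). Such floors cover counting error only, since molecular identifiers are not given, while the 95% intervals of fold changes below come from edgeR and include the spread between libraries. APC, the depleted gene, has 417, 363 and 363 counts in 1CT and 351, 342 and 433 in 1CT-A. At 46.6 ± 2.75 CPM against 31.9 ± 2.21 (SD, n = 3), its RNA is lower in 1CT-A by edgeR's quasi-likelihood test (log2 fold change -0.58, SE 0.09, adjusted p = 1.8e-04). Most RNAs that define an epithelial line are absent: 9 of 13 colon epithelium markers stay under 3 counts in every library, and the defining EPCAM, VIL1, CDX1, MUC2 and CHGA are at 0. The epithelial list sums to 13.4 to 17.5 CPM in 1CT and 3.23 to 7.28 in 1CT-A. The 9 fibroblast and mesenchymal markers, led by FN1, sum to 44901 to 52937 CPM in 1CT and 22027 to 23421 in 1CT-A, with none at 0. Most of that sum is FN1 (44241 and 18128 CPM), and of the 9 markers 5 are lower and 2 higher in 1CT-A, COL3A1 (47.8 and 253.4 CPM, log2 fold change 2.37) and DCN (0.30). The 7 immune and endothelial markers sum to 10.99 to 14.4 and 8.57 to 10.2 CPM, with PTPRC, CD3E and CDH5 at 0. Depth and both of the first marker lists move with the cell line, and their part in the results below was not tested. In bulk RNA, fewer cells of a type and less RNA per cell cannot be told apart.

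In 1CT-A, 3 of the 10 host RNAs are higher, 1 is lower, and 6 do not pass the test (edgeR, adjusted p under 0.05). Over all 12514 genes tested, 51% pass, 25% as higher and 26% as lower in 1CT-A. The share of hosts that pass is 40%, beside 56.4% among the 6391 genes whose mean level lies within the range of the hosts. With 10 hosts these shares differ by few genes, and with scaling by library size only, 5 hosts are higher and 1 is lower. The gap is therefore not read as a property of the hosts. The median log2 fold change of the hosts is 0.10, against -0.01 over all genes tested, and the median of its absolute value is 0.19 against 0.36. Among the 6391 genes in the level range of the hosts, these medians are 0.07 and 0.29. The hosts differ in direction, and the sizes range from a fold of 0.74 for GAS5 to 1.56 for SNHG15.

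**Figure D1:**
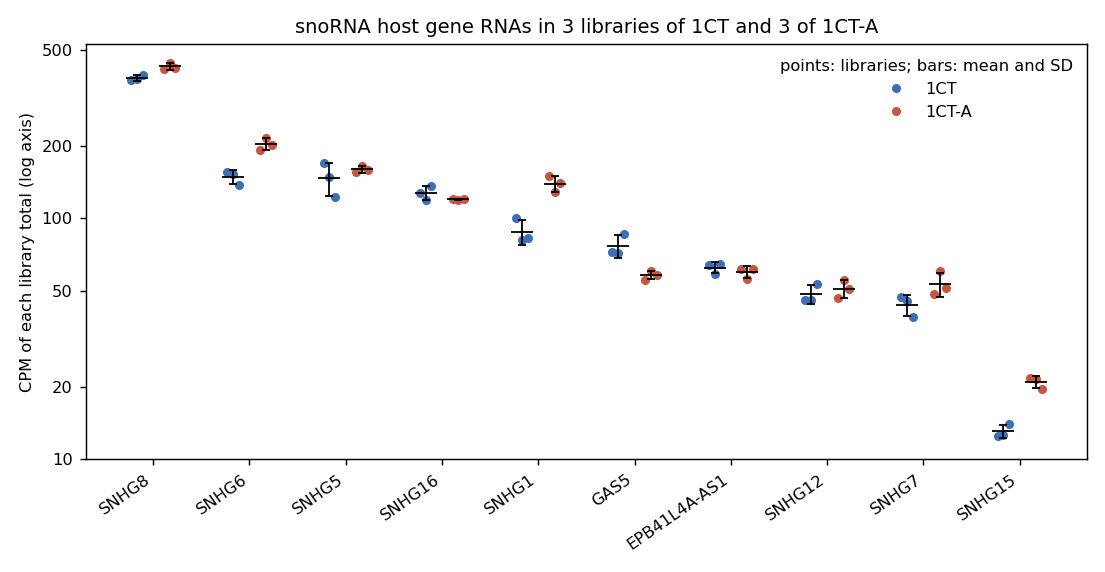
CPM of each host RNA on a log axis in the 3 libraries of 1CT (blue) and of 1CT-A (red), with the mean and SD as black bars, ordered by the mean in 1CT. SNHG8 is the highest and SNHG15 the lowest in both lines, and the points of the lines are apart for GAS5, SNHG1, SNHG6, SNHG7, SNHG8 and SNHG15.

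Among the hosts of box C/D snoRNAs, SNHG1 shows the largest difference. SNHG1 lies on chromosome 11, holds 8 box C/D snoRNA symbols of the tables in its introns. Its level is 100.1, 81.5 and 82.6 CPM in the libraries of 1CT and 149.0, 128.4 and 139.5 CPM in those of 1CT-A. Every 1CT-A library lies above every 1CT library. The difference is a log2 fold change of 0.62 (SE 0.09, adjusted p = 1.2e-04), a fold of 1.54 with a 95% interval of 1.33 to 1.77.

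GAS5 goes the other way. This gene on chromosome 1 was named for its accumulation in growth arrested cells, and it holds 10 box C/D snoRNA symbols of the tables. GAS5 has 72.6, 71.5 and 86.3 CPM in 1CT and 55.7, 60.3 and 58.4 CPM in 1CT-A. All 3 libraries of 1CT-A are below the lowest of 1CT, with 1CT library 3 above the other two of its line. The log2 fold change is -0.44 (SE 0.09, adjusted p = 0.00146), a fold of 0.74 with an interval of 0.64 to 0.85.

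SNHG1 and GAS5 can also be set against each other within a library, where depth and scaling cancel. The ratio of SNHG1 to GAS5 counts is 1.38, 1.14 and 0.957 in 1CT and 2.68, 2.13 and 2.39 in 1CT-A. The means are 1.16 ± 0.21 and 2.40 ± 0.27 (SD, n = 3), so the ratio is 2.07 times as high in 1CT-A. In 1CT library 3, GAS5 is the more abundant of the pair by counts, and in the 5 other libraries SNHG1 is. The pair was chosen after the values were seen, as the box C/D hosts called in opposite directions with the largest differences, so the ratio is given as a description with no test.

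SNHG6, on chromosome 8, is the host of SNORD87 and is the second most abundant of the 10 in both lines. Its level is 155.0, 152.9 and 137.2 CPM in 1CT and 191.4, 215.4 and 202.0 CPM in 1CT-A, without overlap. The log2 fold change is 0.41 (SE 0.07, adjusted p = 4.5e-04), a fold of 1.33 with an interval of 1.19 to 1.49.

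The remaining box C/D hosts, SNHG5 and SNHG16, do not pass. SNHG5, the host of SNORD50A and SNORD50B on chromosome 6, has 168.6, 148.8 and 122.6 CPM in 1CT and 155.0, 165.2 and 158.5 CPM in 1CT-A. The 1CT libraries span the whole range of 1CT-A, with a coefficient of variation of 15.7% against 2.88% from counting alone. The log2 fold change of 0.08 (95% interval -0.12 to 0.29, adjusted p = 0.494) has no stable direction, since without 1CT library 3 it is -0.02. SNHG16, on chromosome 17 and host of SNORD1A, SNORD1B and SNORD1C, has 127.7, 118.7 and 136.2 CPM in 1CT and 120.4, 119.2 and 119.8 CPM in 1CT-A. Its libraries overlap, and its log2 fold change is -0.13 (interval -0.29 to 0.04, adjusted p = 0.176).

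SNHG15 shows the largest fold change of the 10 and is a host of a box H/ACA snoRNA, SNORA9, on chromosome 7. It is also the least abundant, with 106, 105 and 109 counts in 1CT and 243, 245 and 246 in 1CT-A. As CPM these are 12.5, 12.7 and 14.0 CPM against 21.8, 21.5 and 19.5 CPM. The lines do not overlap, and the variation within each line, 6.14% and 5.89%, is no larger than the 9.68% and 6.39% that counting alone gives. The log2 fold change is 0.64 (SE 0.12, adjusted p = 6.4e-04), a fold of 1.56 with an interval of 1.30 to 1.86.

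SNHG8, the host of SNORA24 on chromosome 4, is the most abundant of the 10. Its level is 373.4, 378.0 and 392.9 CPM in 1CT and 415.7, 441.0 and 421.1 CPM in 1CT-A. All 1CT-A libraries lie above those of 1CT by a small step. The log2 fold change of 0.12 (interval -0.02 to 0.26, adjusted p = 0.13) does not pass, and it passes with scaling by library size only (0.16, adjusted p = 0.0423) or without 1CT library 3 (0.16, adjusted p = 0.0261).

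SNHG7, the host of SNORA17A and SNORA17B on chromosome 9, also lies near the threshold. It has 47.1, 45.5 and 38.8 CPM in 1CT and 48.5, 60.2 and 51.5 CPM in 1CT-A, with a narrow gap between the lines. Its log2 fold change is 0.25 (interval 0.03 to 0.47), with an unadjusted p of 0.0315 and an adjusted p of 0.0596 in edgeR. SNHG7 passes with scaling by library size only (adjusted p = 0.0387), with no filter on low counts (adjusted p = 0.013), without 1CT library 1 (adjusted p = 0.0498) and without 1CT-A library 1 (adjusted p = 0.0427).

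EPB41L4A-AS1, the host of SNORA13, lies on chromosome 5, the chromosome of APC, with 542700 bases between its end and the start of APC in GENCODE. It has 64.0, 58.6 and 64.3 CPM in 1CT and 61.7, 55.9 and 61.8 CPM in 1CT-A. The libraries of the lines overlap in part, and the log2 fold change is -0.10 (interval -0.28 to 0.09, adjusted p = 0.361). EPB41L4A, which EPB41L4A-AS1 overlaps on the opposite strand and whose RNA is at 5.34 CPM in 1CT and 4.58 in 1CT-A, does not pass either (log2 fold change -0.27, adjusted p = 0.373).

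SNHG12, on chromosome 1, carries both classes, with SNORD99 beside SNORA16A, SNORA44 and SNORA61. It has 45.9, 46.0 and 53.4 CPM in 1CT and 46.8, 55.4 and 50.9 CPM in 1CT-A, fully mixed between the lines. The log2 fold change is 0.04 (interval -0.17 to 0.24, adjusted p = 0.777), and it turns negative, down to -0.02, without 1CT library 1, 1CT library 2 or 1CT-A library 2.

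**Figure D2:**
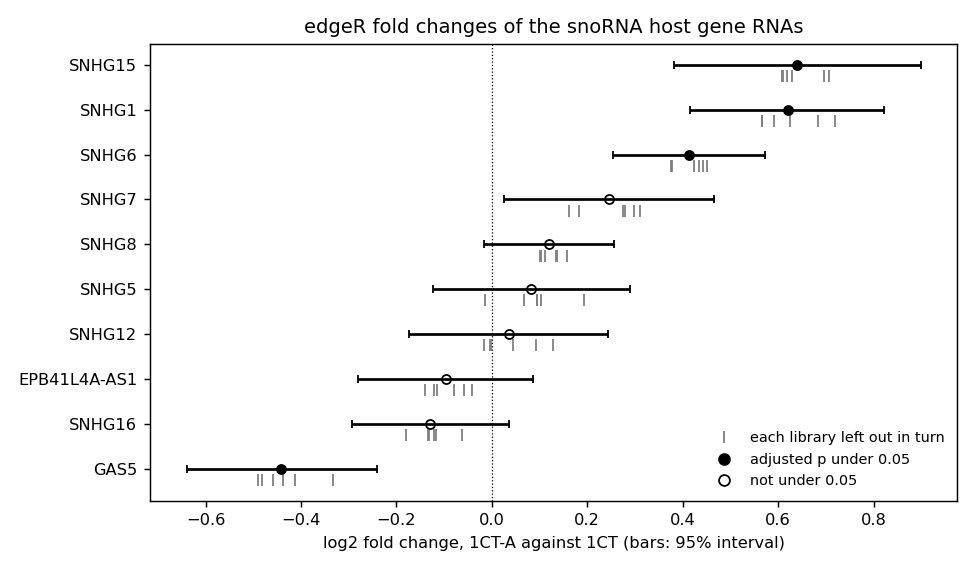
Log2 fold change of each host RNA, 1CT-A against 1CT, as a point with its 95% interval (filled where the edgeR adjusted p is under 0.05), with grey ticks for the value when each library is left out in turn. SNHG15, SNHG1, SNHG6 and GAS5 keep their side of 0 without any library, while the ticks of SNHG5 and SNHG12 fall on both sides.

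By overlap of the libraries alone, 5 hosts are higher in 1CT-A with no overlap, 1 is lower and 4 overlap. Over all genes tested, 31.8% are higher and 27.9% lower with no overlap (59.7% in all). Under a rule that asks for a 2-fold difference together with an unadjusted p below 0.01, taken from the study's methods, 0 of the 10 hosts are called in edgeR, against 13.4% of all genes tested. At an unadjusted p under 0.05 alone, 5 of the 10 pass, SNHG7 being the fifth, and both DESeq2 and limma-voom at an adjusted p under 0.05 give 3 higher and 1 lower. The largest host difference, that of SNHG15, lies at the 89.3rd percentile of the log2 fold changes of all genes, and that of GAS5 at the 23.4th.

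Summed over the 10 hosts, the level is 1136 ± 27.3 CPM in 1CT and 1290 ± 29.0 CPM in 1CT-A (SD, n = 3), a ratio of 1.14. SNHG8 alone takes 33.6% of the summed counts in 1CT and 33.0% in 1CT-A, and the ratio without it is 1.15. Under TMM scaling, as in the edgeR test, the summed means of the 10 hosts lie closer, at 1152 CPM in 1CT and 1273 CPM in 1CT-A. SNHG1 moves from 7.75% to 10.8% of the summed counts, and GAS5 from 6.76% to 4.50%. The shares of SNHG6 go from 13.1% to 15.7% and those of SNHG15 from 1.15% to 1.62%. Since each RNA is read near its 3′ end, these levels are compared as CPM with no division by length.

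The highest and the lowest place in the order of the levels are the same in both lines. In 1CT it runs SNHG8, SNHG6, SNHG5, SNHG16, SNHG1, GAS5, EPB41L4A-AS1, SNHG12, SNHG7 and SNHG15. The libraries of neighbours overlap for SNHG6 and SNHG5, SNHG5 and SNHG16, SNHG1 and GAS5, and SNHG12 and SNHG7. In 1CT-A, SNHG1 stands above SNHG16, GAS5 below EPB41L4A-AS1 and SNHG12 below SNHG7. There, overlap remains for EPB41L4A-AS1 and GAS5, GAS5 and SNHG7, and SNHG7 and SNHG12.

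The genes whose profile over the 6 libraries lies closest to the median profile of the hosts are DAP, C20orf24, TMEM230, ADAM17 and OXA1L. The measure is the Euclidean distance between log2 CPM values centred per gene, over 8214 genes, and it runs from 0.0584 for DAP to 0.0686 for OXA1L. The distance of the hosts from their own median profile runs from 0.107 for SNHG8 to 0.735 for GAS5. These 5 genes were picked as the closest, so their distances set no scale for the hosts. Among the hosts, GAS5, SNHG1 and SNHG15 are the farthest from the median profile.

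The neighbouring gene on the other strand may bear on several of these counts, because the sources used here do not state whether counting used strand. Without strand, reads of a host and of an overlapping opposite-strand gene cannot be told apart. GENCODE (GRCh38, not the hg19 build that the labels name) places GAS5-AS1 over 1469 bases of GAS5, MCMDC2 over 1488 bases of SNHG6, PRSS12 over 5279 bases of SNHG8, and TRNAU1AP over 8 bases of SNHG12. ZBTB37, which overlaps the start of GAS5, has 1 to 12 counts per library and was not tested.

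MCMDC2, a gene named for an MCM helicase domain, follows SNHG6 closely. The ratio of MCMDC2 to SNHG6 counts is 0.355, 0.351 and 0.398 in 1CT and 0.354, 0.356 and 0.383 in 1CT-A. The ratios of the lines overlap, at a mean of 0.368 ± 0.026 and 0.364 ± 0.016 (SD, n = 3). MCMDC2 is higher in 1CT-A by a log2 fold change of 0.40 (SE 0.08, adjusted p = 0.00115), beside 0.41 for SNHG6.

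GAS5-AS1 is lower in 1CT-A, as GAS5 is, at 30.3 CPM in 1CT and 24.5 in 1CT-A (log2 fold change -0.35, SE 0.13, adjusted p = 0.0415). Unlike those of GAS5, its libraries overlap, at 30.8, 25.0 and 35.2 CPM in 1CT and 26.2, 21.9 and 25.4 CPM in 1CT-A. Its ratio to GAS5 is 0.423, 0.350 and 0.408 in 1CT and 0.470, 0.362 and 0.435 in 1CT-A, which overlap. For SNHG8 the neighbour parts from the host. PRSS12, which encodes the serine protease neurotrypsin, goes from 33.7 to 63.3 CPM (log2 fold change 0.87, SE 0.09, adjusted p = 3.0e-06), and its ratio to SNHG8 is 0.088 ± 0.005 in 1CT and 0.149 ± 0.006 in 1CT-A (SD, n = 3). TRNAU1AP, which acts in selenocysteine incorporation, is higher in 1CT-A with a log2 fold change of 0.26 (SE 0.09, adjusted p = 0.0278), while SNHG12 does not pass.

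**Figure D3:**
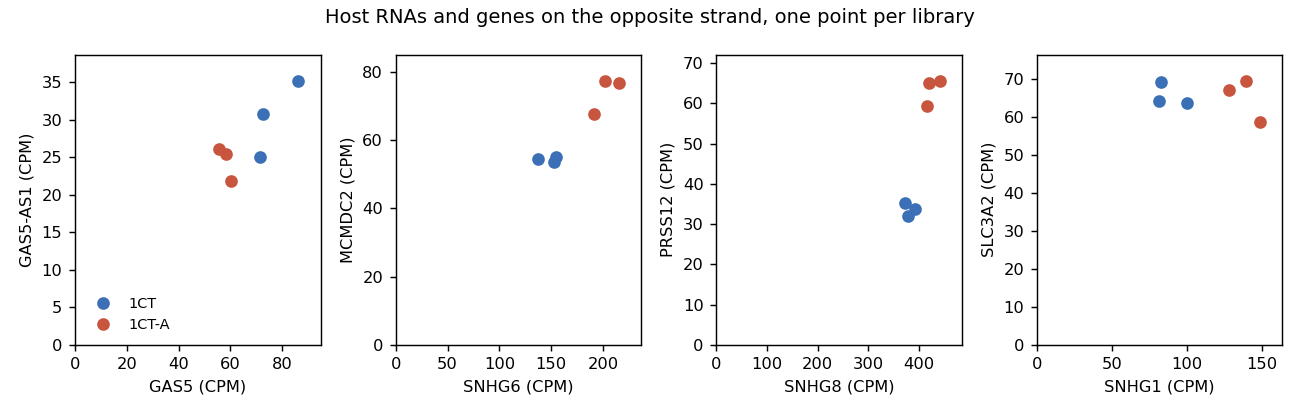
CPM of 4 host RNAs (horizontal axis) against that of a gene on the opposite strand (vertical axis), with each point a library of 1CT (blue) or 1CT-A (red). GAS5-AS1 and MCMDC2 move along with GAS5 and SNHG6, though the GAS5-AS1 libraries of the lines overlap. PRSS12 differs more than SNHG8, and SLC3A2 stays between 58.6 and 69.5 CPM while SNHG1 differs.

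SNHG1 shares a short divergent start region with SLC3A2, the heavy chain of amino acid transporters, with 51 bases between the starts in GENCODE and no overlap of the genes. SLC3A2 has 539, 531 and 539 counts in 1CT and 654, 765 and 876 in 1CT-A, a mean of 65.7 and 65.1 CPM. Its log2 fold change is -0.05 (SE 0.09, adjusted p = 0.647), beside 0.62 for SNHG1. The ratio of SNHG1 to SLC3A2 counts is 1.57, 1.27 and 1.19 in 1CT and 2.54, 1.91 and 2.01 in 1CT-A, without overlap. The RefSeq starts lie farther apart than those of GENCODE, at 62855885 for SNHG1 and 62856109 for the nearest start of SLC3A2. The region between these RefSeq starts is printed because the 2 RNAs that leave it differ in this way. It is the RefSeq window of SNHG1 (GRCh38.p14, chr11:62855836-62856135, minus strand), with capitals at the RefSeq start of SNHG1 (CTC) and, nearer the 5′ end, at the single base opposite the RefSeq start of SLC3A2.
SNHG1 start region: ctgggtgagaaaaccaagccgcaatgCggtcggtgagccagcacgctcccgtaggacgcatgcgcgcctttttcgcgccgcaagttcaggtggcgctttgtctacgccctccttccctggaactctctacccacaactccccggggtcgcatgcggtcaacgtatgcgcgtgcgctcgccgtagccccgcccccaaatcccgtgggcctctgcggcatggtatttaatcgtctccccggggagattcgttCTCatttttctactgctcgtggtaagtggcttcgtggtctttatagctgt

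The intron-encoded snoRNAs are almost absent from these libraries, which prime on poly(A). The list of snoRNAs of the 10 hosts has 33 symbols in the tables, of which 7 are at 0 in every library and 5 reach the level needed for the test. Their summed counts are 108 to 137 per library in 1CT and 140 to 212 in 1CT-A, or 0.929% to 1.39% of the counts of the hosts. SNORD81, in GAS5, has the most, at 4.35 ± 1.02 CPM in 1CT and 3.68 ± 0.55 in 1CT-A (SD, n = 3). By host, the snoRNA counts are 6.99% to 10.1% of the GAS5 count, 4.91% to 10.2% of the SNHG12 count and at most 0.119% of the SNHG8 count. At this depth, 0 of the 5 tested snoRNAs are called by edgeR, 1 of them, SNORD99 of SNHG12 (-0.85), is lower at an unadjusted p under 0.05, and DESeq2 and limma-voom call 0. A difference in the snoRNAs themselves is not detectable here.

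Other noncoding hosts of the lists are found in both directions. For this list and those that follow, the background over all genes tested is 25% higher and 26% lower in 1CT-A. Of 16 in the tables, 11 could be tested, 2 pass as higher and 4 as lower in the depleted line, with a median log2 fold change of 0.03. DANCR, a host of SNORA26 known as an antidifferentiation RNA, shows the largest difference, with 19.9, 22.2 and 21.8 CPM in 1CT and 50.1, 56.7 and 59.8 CPM in 1CT-A. Its log2 fold change of 1.34 (SE 0.10, adjusted p = 2.4e-07) exceeds that of each of the 10 hosts. SNHG18 (-0.94, adjusted p = 2.0e-05) and SNHG25 (-0.48, adjusted p = 0.00139) are lower, as GAS5 is, with SNHG32 (-0.33) and SNHG9 (-0.29). SNHG17 (0.29) is the other that is higher, and SNHG19, the most abundant at 202 ± 21.7 and 211 ± 6.16 CPM, is not called (0.03, adjusted p = 0.803).

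Some host symbols outside the 10 have an overlapping symbol that holds far more counts. SNHG3, EIF4A1 and PPAN are at or near 0, although EIF4A1 is a translation factor that every cell uses. SENP3-EIF4A1, a read-through symbol that overlaps EIF4A1 in GENCODE, holds 11191 to 11921 counts in 1CT and 20727 to 23875 in 1CT-A, and RCC1, which overlaps SNHG3, holds 786 to 1139 and 3142 to 3659. PPAN-P2RY11, the read-through symbol of PPAN, holds only 7 to 9 counts in 1CT and 12 to 23 in 1CT-A. How the counting shared reads between such symbols was not tested. None of the 10 hosts is at 0.

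Among protein-coding hosts most do not pass. Of 43 tested, 15 are higher in 1CT-A, 1, RACK1 of the small ribosomal subunit, is lower (-0.28) and 27 are not called, with a median log2 fold change of 0.12. DKC1, the pseudouridine synthase of box H/ACA particles (0.71), NOP56, a core protein of box C/D particles (0.67), and NCL, which encodes nucleolin (0.64), show the largest differences. RPL27A, the most abundant, is at 9976 ± 701 and 10594 ± 622 CPM and is not called (0.05, adjusted p = 0.605).

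The next list holds the proteins that bind and assemble snoRNAs. Of 20 tested, 13 are higher in 1CT-A and 1, NHP2, is lower (-0.22, adjusted p = 0.037), with a median log2 fold change of 0.48. Over all genes tested, 25% are higher and 26% lower. NHP2, an H/ACA core protein, is not called by DESeq2. NUFIP1, an assembly factor, has the largest difference (0.97), followed by NOLC1, a nucleolar chaperone of snoRNPs (0.92). FBL, the methyltransferase of box C/D particles and the most abundant of the list, goes from 392 ± 28.0 to 635 ± 63.6 CPM (0.66, SE 0.09, adjusted p = 3.4e-05). DKC1 and NOP56 are in both lists.

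Among 17 factors of nonsense-mediated decay, 7 are higher and 2 lower, with a median of 0.24. Those that are higher are led by exon junction complex proteins, MAGOH (0.92), EIF4A3 (0.75), MAGOHB (0.73) and RBM8A (0.62). NBAS (-0.66) and SMG6 (-0.47) are lower, and UPF1, the central helicase of the pathway, is at 86.4 and 87.3 CPM and not called. Of 12 genes of TOP translation control, 5 are higher, led by CNBP (0.55), EIF4EBP1 (0.54) and TIAL1 (0.43), with RPS6KB1 (0.34) and LARP4B (0.21), and the median is 0.21. In this list 0 are lower by edgeR, also at an unadjusted p under 0.05 and by DESeq2 and limma-voom. LARP1, which binds TOP tracts, is not called (0.10, adjusted p = 0.299).

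The last list holds long noncoding RNAs that host no snoRNA. Of 8 tested, 5 are lower and 0 higher in edgeR, DESeq2 and limma-voom, and 1, OIP5-AS1 (0.25), is higher at an unadjusted p under 0.05. Their median log2 fold change is -1.24, against 0.10 for the 10 hosts. MALAT1, a nuclear RNA of speckles, has 13051, 12783 and 13059 CPM in 1CT and 2102, 2314 and 2163 CPM in 1CT-A, a log2 fold change of -2.60 (SE 0.06, adjusted p = 4.4e-11). KCNQ1OT1 (-1.92), LINC-PINT (-1.86), NEAT1 (-1.64) and CYTOR (-0.84) follow. The lists are set side by side as counts and medians, with no test between them.

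**Figure D4:**
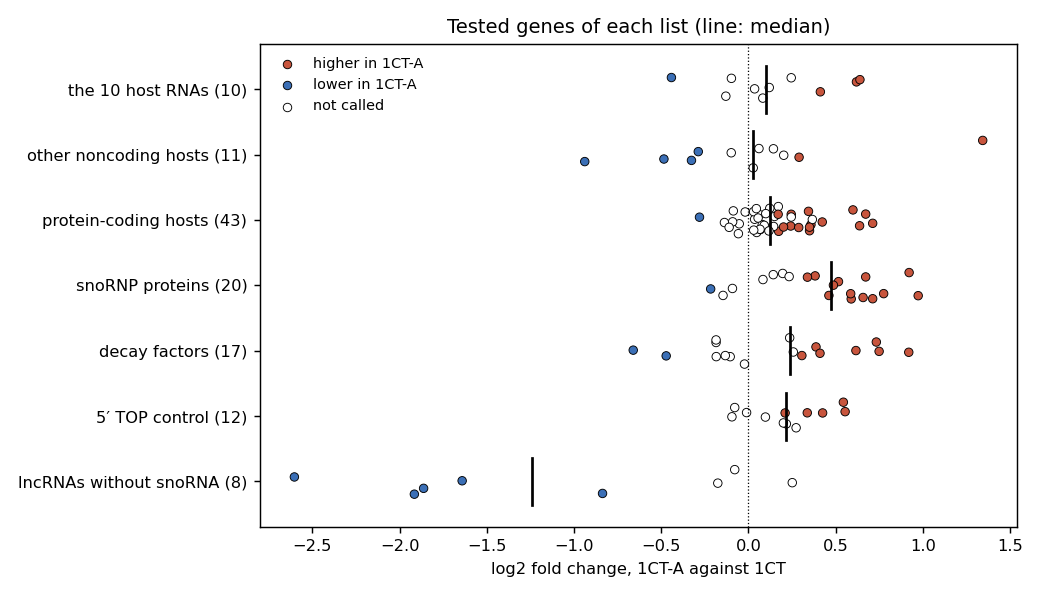
Log2 fold change, 1CT-A against 1CT, of each tested gene in 7 lists, with red for higher, blue for lower and white for not called (edgeR, adjusted p under 0.05), and a black line at each median. Vertical scatter within a list carries no value. The snoRNP proteins center at 0.48, the 10 hosts at 0.10 and the RNAs without snoRNA at -1.24.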

How the data were processed

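RNA was measured in 3 libraries of 1CT and 3 of 1CT-A by QuantSeq on a NextSeq 500. The authors deposited whole-number read counts per gene symbol, 1 file per sample. Bowtie2, edgeR and hg19 are named in the submitters' processing notes without role or order, and the counting tool and strand setting are not given in the sources used here. Groups came from the labels.

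Rows with the same symbol were summed, and CPM was computed on each file's total. Counts were tested with edgeR 4.0.16 (R 4.3.3; TMM scaling, filterByExpr with a minimum count of 10, quasi-likelihood F test, all 6 libraries, no covariate), with Benjamini-Hochberg adjustment over 12514 genes and a threshold of 0.05. SE was the absolute log2 fold change over the square root of F, and the procedure was tested on simulated data. DESeq2 1.42.0 and limma 3.58.1 served as alternatives, beside other scalings, filters, thresholds and leaving out each library. Library totals were 7788679 to 12602988 counts. SNHG32, CYTOR and RACK1 are the symbols C6orf48, LINC00152 and GNB2L1 of the files. Positions come from GENCODE v44 and sequences from RefSeq and GENCODE, both on GRCh38, another build than hg19. SNORA17 and SNORA43 were counted among the snoRNAs although RefSeq has no position under those names.

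The hosts and lists were chosen with earlier results of these data known. Named outside the 10 hosts are, per list, the 3 genes with the largest log2 fold change among those called, at 10 CPM or more and without overlap, the gene of the highest mean CPM, neighbours of the hosts, and the 5 closest profiles. Genes named only to fill a count of 5 or fewer, the further decay factors, NHP2, SNHG3, EIF4A1, PPAN, RCC1 and the read-through symbols were named after their values were seen.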

Additional observations from a re-analysis of the deposited data

How the results depend on the processing

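GAS5, SNHG1, SNHG6, SNHG15, SNHG16 and EPB41L4A-AS1 kept their direction and their side of the threshold under all 14 alternatives, and none of these shifted the median of all genes by 0.1 or more on the log2 scale. SNHG7 passed with library size only (0.285), with no filter (0.291), and without 1CT replicate 1 or 1CT-A replicate 1 (leave-one-out range 0.162 to 0.310). SNHG8 passed with library size only (0.159) and without 1CT replicate 3 (range 0.102 to 0.158). SNHG5 turned to -0.015 without 1CT replicate 3 (range -0.015 to 0.194), and SNHG12 to -0.004, -0.001 and -0.017 without 1CT replicates 1 and 2 and 1CT-A replicate 2 (range -0.017 to 0.128). With library size only, 5 hosts were higher. Other noncoding hosts had 1 higher at an adjusted p under 0.01 and 1 to 2 with a library left out. Of the snoRNP proteins, 0 were lower with library size only, no filter, DESeq2, the replicate block or an adjusted p under 0.01, and 0 to 1 with a library left out. Of TOP control genes, 3 were higher at an adjusted p under 0.01. Of RNAs without snoRNA, 1 was higher with library size only or no filter, and 0 to 1 with a library left out, as for the snoRNAs. The cause was not tested.

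Replicates share only a number: deviations of same-numbered libraries correlate at -0.16, 0.22 and -0.14 over 8224 genes. The replicate block gave 2993 higher and 3098 lower genes, against 3131 and 3257 without it, changed no call of the 10 hosts, and ended that of NHP2 (0 snoRNP proteins lower). Not every library correlated best with its own number. With no filter, the 19169 genes tested include many at low counts. Of the 33 snoRNA symbols, 5 had the counts needed for the test.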
